A study of Homo sapiens with 6 samples.

Results

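The array signals of 10 genes of exosome formation and release were sought in SKOV3 cells that had received a miR21 precursor or a control precursor. Exosomes themselves were not measured here. The genes were chosen by name, as all probe sets whose platform symbol is 1 of the 10: the tetraspanin genes CD9, CD63 and CD81, the sorting genes HGS, TSG101, PDCD6IP, VPS4B and SDCBP, and the GTPase genes RAB27A and RAB27B. For 9 of the 10 genes at least 1 probe set was named, 18 probe sets in all out of 41091 that name a single gene. PDCD6IP, which encodes ALIX, was not analysed here. None of the 18 names a further gene, and 14 of them, with at least 1 for each of the 9 genes, had a mean signal above the median of all probe sets.

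SKOV3 is an established human ovarian cancer cell line, which the labels class as high grade serous. Cells were transfected for 24 h with the miR21 precursor at 5 nM or with a negative control precursor, and total RNA was read on U133 Plus 2.0 arrays, 3 arrays per group, numbered 1 to 3 in each. The series title concerns miR21 that reaches cancer cells in stromal exosomes and lowers the apoptosis gene APAF1. Here the small RNA was delivered by transfection, no exosomes were applied and no untransfected cells were analysed here, so the arrays report the recipient cell's own exosome genes under 2 synthetic precursors. Whether the 3 replicates come from separate cultures is not stated in the labels. The p-values below therefore rest on array-to-array spread that could be technical.

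Exosomes are vesicles that bud into the lumen of a late endosome, the multivesicular body, and leave the cell when that body fuses with the plasma membrane. HGS and TSG101 belong to the first ESCRT complexes, which gather ubiquitinated cargo. ALIX bridges them to the later ESCRT-III filaments and to syntenin (SDCBP), an adaptor of syndecans, and the ATPase VPS4B takes the filaments apart after scission. RAB27A and RAB27B bring the multivesicular body to the plasma membrane, and CD9, CD63 and CD81 are membrane proteins much used as exosome markers. Exosomes carry microRNAs, miR-21 among them, between cells.

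The sequence shown first is the small RNA that separates the groups, since it is the agent that one group received and the other did not. The labels give the agent as a miR21 precursor without its letters, and both lines are the RefSeq entries of the human gene (GRCh38.p14, chr17:59841266-59841337, plus strand). Capitals mark the seed, bases 2 to 8, in the mature RNA, and the mature RNA within the hairpin.
hsa-miR-21-5p: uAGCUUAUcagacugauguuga
microRNA 21 hairpin: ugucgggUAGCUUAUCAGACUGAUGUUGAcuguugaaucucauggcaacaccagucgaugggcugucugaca
Of 2370 human mature microRNA names in the table, 2 carry the seed AGCUUAU, hsa-miR-21-5p itself and hsa-miR-590-5p. No transcript sequences were used here, so sites for this seed in the 9 genes were not searched.

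The deposited values are MAS5 signals, a linear brightness per probe set that had been scaled so that every array has the same trimmed mean. The arrays of replicate number 1 stood apart from the rest. Their median signals were 125 (control) and 117 (miR21), against 55.2 to 61.8 on the other 4 arrays, and the leading principal component (65.2% of the variance) set both of them against the other 4. Of 10 markers of ovarian carcinoma epithelium, 8 lay above the signal filter, among them PAX8, EPCAM and ERBB2, while WT1 and MUC16 did not. Of all 19775 genes with a probe set, 12206 lay above the filter. Of 8 fibroblast markers 3 did, COL1A1, COL1A2 and ACTA2, and of 4 leukocyte markers with a probe set 0 did. COL1A1 read 675 and 824 on the arrays of number 1 and 108 to 181 on the other 4. COL1A2 read 172 and 160 on the arrays of number 1 and 51.4 to 167 on the other 4. For ACTA2 the values were 388 and 284 against 131 to 241. The part of these markers in the results was not tested.

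Across the 9 measured genes no difference between the precursors passed the test. limma, fitted without the replicate number, called 0 of 9 at an adjusted p under 0.05, as it called 0 of 12206 genes tested (0%). At an unadjusted p under 0.05 it held 2 of the 9, RAB27A and RAB27B, against 298 of all genes (2.44%). The median log2 difference, miR21 minus control, was -0.07 over the 9 genes and -0.01 over all genes tested. Within replicate numbers 1, 2 and 3 the median of the 9 was -0.13, -0.02 and -0.14. The RAB27 pair had the 2 largest differences of the 9, in opposite directions. RAB27A differed by -1.03 on the log2 scale, a signal 2.04-fold lower, and RAB27B by 0.70, a signal 1.63-fold higher. Of all genes tested, 96% differed by less in size than RAB27A and 89% by less than RAB27B. With the mean of its probe sets the RAB27B difference was 0.07. The differences of the other 7 lay between -0.36 (CD9) and 0.33 (TSG101). An array of a whole culture cannot tell fewer expressing cells from less RNA per cell.

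**Figure D1:**
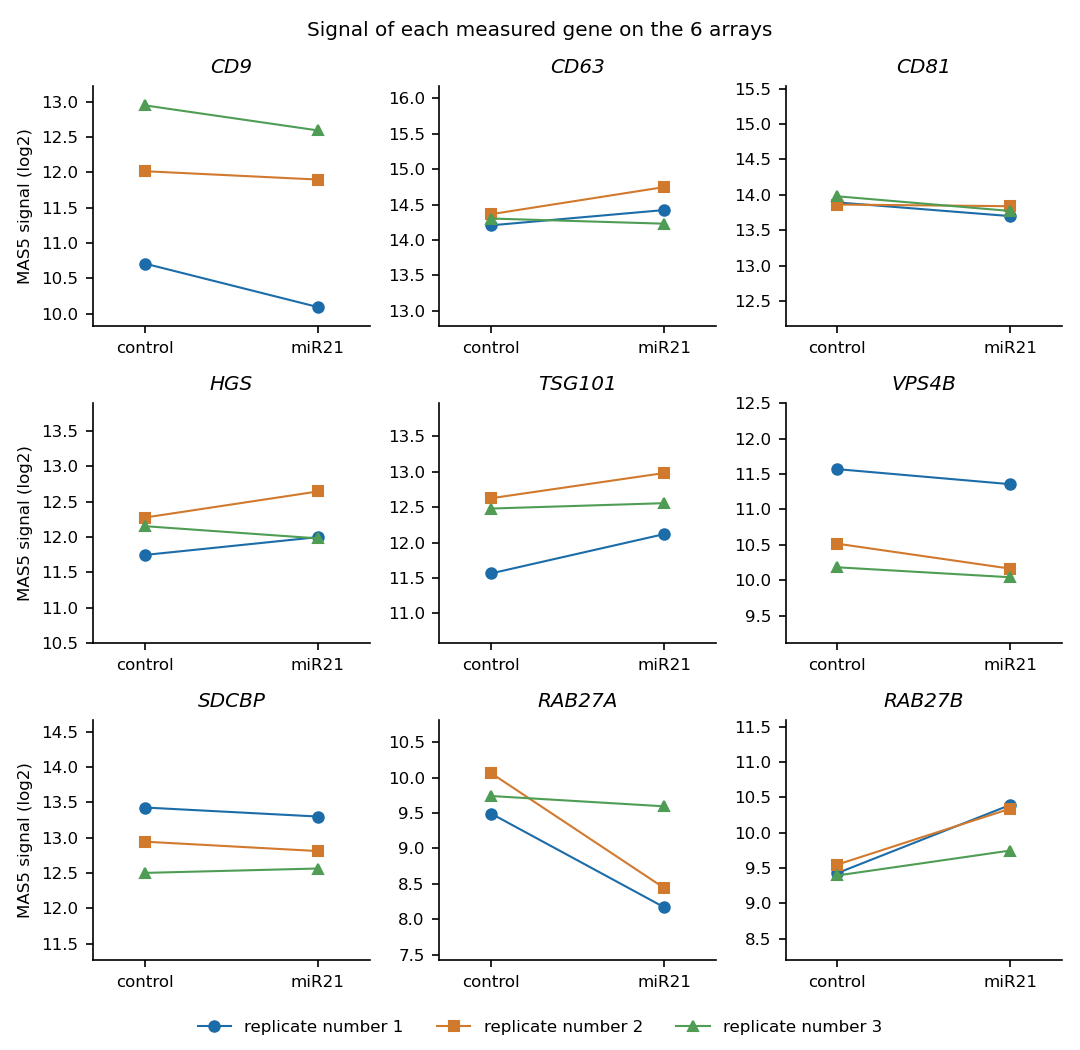
MAS5 signal (log2) of the probe set that stands for each of the 9 genes, on the control and miR21 arrays; a line joins the 2 arrays of 1 replicate number, and every panel spans the same number of log2 units. The lines of RAB27A slope down in numbers 1 and 2 and those of RAB27B slope up in all 3, while for CD9, TSG101, VPS4B and SDCBP the numbers lie farther apart than the precursors do.

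RAB27A encodes the GTPase that docks multivesicular bodies at the plasma membrane. Its brightest probe set read 720, 1070 and 856 on control arrays 1, 2 and 3 and 288, 348 and 774 on miR21 arrays 1, 2 and 3. Both miR21 arrays of numbers 1 and 2 lay below every control array, and the miR21 array of number 3 lay among the controls, so the groups overlapped. The log2 means were 9.77 ± 0.29 (SD, n = 3) for control and 8.74 ± 0.76 (SD, n = 3) for miR21. The SE in limma was 0.43 (adjusted p = 0.9999), and the 95% interval of the difference ran from -2.03 to -0.03. With the replicate number as a block the SE was 0.29 (adjusted p = 0.147). By exact permutation of the arrays, two-sided, p = 0.2, where 0.1 is the smallest value that this number of arrays allows.

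The difference of RAB27A depended on the replicate number. It was -1.32 in number 1, -1.62 in number 2 and -0.15 in number 3. Without both arrays of number 1, which stood apart, the block fit gave -0.88 (SE 0.34, adjusted p = 0.372). Leaving out 1 array at a time kept it lower, between -1.46 without miR21 replicate 3 and -0.75 without miR21 replicate 1.

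The other 4 RAB27A probe sets had means on the same side of 0, with smaller differences. All 5 carry identifiers ending in s_at or x_at, which mark probes that may also read other transcripts. The second brightest read 542, 642 and 1071 under control and 388, 316 and 1045 under miR21, a log2 difference of -0.51. The third read 610, 685 and 838 against 384, 307 and 767, a difference of -0.65. Both repeat the pattern of the brightest set, with control and miR21 close in number 3 (differences of -0.04 and -0.13). The fourth had a mean of -0.65 but went up in number 3, from 228 to 415, after 640 to 301 in number 1 and 611 to 185 in number 2. The dimmest read 439, 98.0 and 121 under control and 181, 77.3 and 82.1 under miR21, a difference of -0.73 in which all 3 numbers were lower. So 4 of the 5 sets were lower in all 3 numbers, where 21% of all probe sets tested were. Groups without overlap were found in 0 of the 5 (6.47% of all probe sets), and 3 of the 5 had an unadjusted block p under 0.05 (18.6% of all). The 5 sets read 1 gene and are not independent. The mean of the 5 differed by -0.71 (SE 0.35, adjusted p = 0.9999).

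RAB27B, the paralogue, also acts in exosome secretion and has been linked to the transfer of vesicles to the plasma membrane. Its brightest probe set read 689, 749 and 673 on control arrays 1, 2 and 3 and 1343, 1295 and 859 on miR21 arrays 1, 2 and 3. Every miR21 array lay above every control array, with number 3 nearest to the controls. Of the 9 genes RAB27B was higher without overlap, as 3.38% of all genes tested were, and CD81 was lower without overlap, as 3.27% were (6.65% together). The log2 means were 9.46 ± 0.08 (SD, n = 3) and 10.16 ± 0.36 (SD, n = 3), and limma gave a difference of 0.70 with SE 0.30 (95% interval 0.0049 to 1.40, adjusted p = 0.9999). With the replicate block the SE was 0.18 and the adjusted p 0.138, and the exact permutation test gave its smallest value, p = 0.1.

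The differences of RAB27B within numbers 1, 2 and 3 were 0.96, 0.79 and 0.35. Without both arrays of number 1 the block fit gave 0.57 (SE 0.30, adjusted p = 0.684). Leaving out 1 array at a time gave 0.59 to 0.91. The other 2 probe sets of RAB27B were below the signal filter, one at 22.9 to 55.6 (difference 0.05) and one at 15.7 to 84.7 (difference -0.54). With the mean of all 3 probe sets the RAB27B difference was 0.07, so the higher reading rests on the single probe set above the filter. The cause of the disagreement was not tested.

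**Figure D2:**
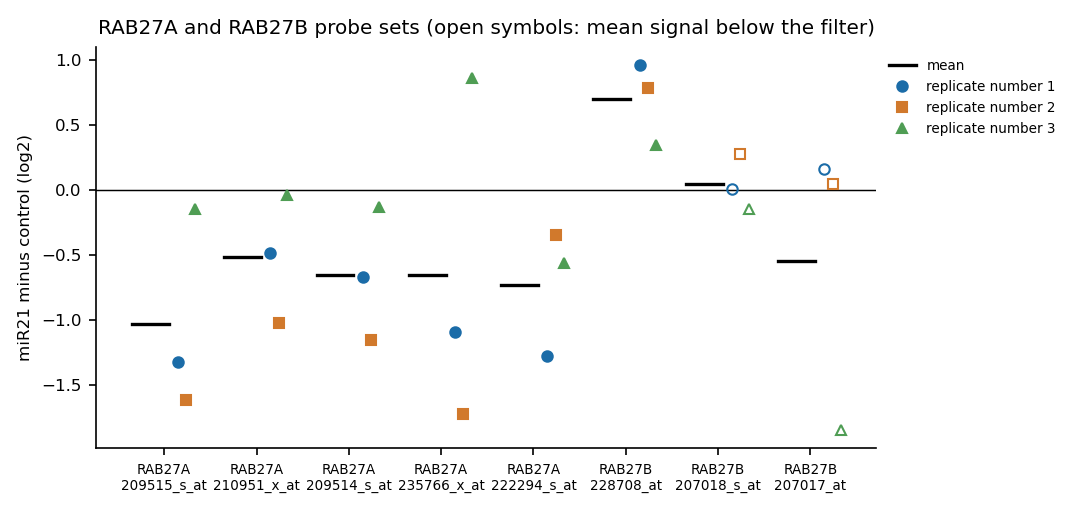
Log2 difference, miR21 minus control, for the 5 probe sets of RAB27A and the 3 of RAB27B; bars are means and points the 3 replicate numbers, open where the probe set lay below the filter. The means of the RAB27A sets lie between -1.03 and -0.51, and the bright RAB27B set lies at 0.70 while its 2 dim sets lie at 0.05 and -0.54.

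The change of RAB27B exceeded that of RAB27A by 2.29, 2.41 and 0.50 log2 units in numbers 1, 2 and 3 (mean 1.73, SD 1.07), a contrast chosen after the values were seen. The same sign in all 3 numbers follows from the 2 genes, since RAB27A was lower and RAB27B higher in each. The exact two-sided permutation test gave p = 0.1, its smallest value, as for RAB27B alone, and is no separate support. The RAB27B part of the contrast rests on its single probe set above the filter. The signals of the 2 genes come from different probes and were not set against each other as levels.

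Neither RAB27A nor RAB27B passed limma, and the RAB27B difference rests on its single probe set above the filter. The regions before the outermost RefSeq start of these 2 paralogues are shown because their mean differences had opposite signs. Each is the 250 bases before the start, 5′ to 3′ in the gene's direction (GRCh38.p14, RAB27A at chr15:55319124-55319373, minus strand, and RAB27B at chr18:54717607-54717856, plus strand). Capitals mark 4 motifs, picked with the sequences in view and searched on both strands. The TATA box was searched as TATAAA. The GC box was searched as GGGCGG. The core of ETS factor sites was searched as CGGAAGT. The E-box, which reads alike on both strands, was searched as CACGTG.
RAB27A: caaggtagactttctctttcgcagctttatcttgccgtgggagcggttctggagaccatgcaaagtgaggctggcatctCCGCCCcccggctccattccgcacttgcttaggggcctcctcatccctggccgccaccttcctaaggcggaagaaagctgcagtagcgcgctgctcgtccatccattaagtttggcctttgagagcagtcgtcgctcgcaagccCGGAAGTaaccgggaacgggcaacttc
RAB27B: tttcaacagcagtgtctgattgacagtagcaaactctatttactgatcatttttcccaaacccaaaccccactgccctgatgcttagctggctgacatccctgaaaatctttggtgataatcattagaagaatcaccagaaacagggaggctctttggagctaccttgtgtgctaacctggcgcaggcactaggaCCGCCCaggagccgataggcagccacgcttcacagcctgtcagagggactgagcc
The RAB27A stretch has 58.8% G and C and 17 CpG pairs, and the RAB27B stretch has 50.4% and 4, against a median of 57.6% G and C over 24885 such stretches. Both hold 1 GC box in reverse orientation (CCGCCC), which 41.7% of all stretches hold on either strand. RAB27A alone of the pair holds CGGAAGT, found in 6.16% of all, and neither holds TATAAA (11.4%) or CACGTG (6.44%). CGGAAGT also stands before HGS, TSG101, PDCD6IP and VPS4B, so 5 of the 8 genes of the set with such a stretch hold it. GGGCGG is likewise held by 5 of the 8, CACGTG by 1 and TATAAA by 0. As the motifs were picked with the sequences in view, these counts are a description only. The part of the motifs in the differences was not tested. Both genes have further starts in RefSeq that are not shown, and the arrays do not tell which start was used.

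CD9, a tetraspanin of the cell surface and of exosomes, differed more between replicate numbers than between precursors. It read 1674, 4142 and 7896 on control arrays 1, 2 and 3 and 1094, 3817 and 6179 on miR21 arrays 1, 2 and 3. The arrays of number 1 were the lowest of both groups and those of number 3 the highest, a 4.72-fold range among the controls alone. Within each number the miR21 array was the lower, by -0.61, -0.12 and -0.35 on the log2 scale. The mean difference of -0.36 had an SE of 0.76 in limma (95% interval -2.12 to 1.40, adjusted p = 0.9999) and of 0.15 with the replicate block (adjusted p = 0.233). Under the block 3 of the 9 had an unadjusted p under 0.05, against 20.1% of all genes tested: CD9 and RAB27A lower (10.3% of all) and RAB27B higher (9.81%). Without both arrays of number 1 the block fit gave -0.24 (SE 0.26). Without control replicate 3 the CD9 difference was 0.17, and without miR21 replicate 1 it was 0.35, so its sign without the block turned with 1 array. The 2 other CD9 probe sets were dim, one at 4.77 to 19.5 (difference -1.34, groups without overlap) and one at 5.39 to 83.9 (difference 1.34), and had opposite signs.

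CD63, a tetraspanin of late endosomes and lysosomes, read 18896, 21077 and 20192 on control arrays 1, 2 and 3 and 21941, 27477 and 19199 on miR21 arrays 1, 2 and 3. The groups overlapped, with miR21 replicate 2 the highest. The log2 difference was 0.18 (SE 0.25, 95% interval -0.40 to 0.75, adjusted p = 0.9999), and it was 0.22, 0.38 and -0.07 within numbers 1, 2 and 3. Without miR21 replicate 2 the CD63 difference was 0.0348, and without miR21 replicate 3 it was 0.29.

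CD81, a tetraspanin of the plasma membrane, read 15207, 14896 and 16147 on control arrays 1, 2 and 3 and 13298, 14655 and 13985 on miR21 arrays 1, 2 and 3. Every miR21 array lay below every control array, by a narrow margin between miR21 replicate 2 and control replicate 2. The log2 difference was -0.14 (SE 0.23, 95% interval -0.67 to 0.39, adjusted p = 0.9999), with -0.19, -0.02 and -0.21 within the numbers. It was among the smaller differences here: 31.4% of all genes tested differed by less in size. The SD of its log2 signal was 0.06 among the controls and 0.07 among the miR21 arrays, the smallest spread of the 9 genes in both groups.

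TSG101, the ESCRT-I subunit that binds ubiquitinated cargo, read 3027, 6324 and 5715 on control arrays 1, 2 and 3 and 4446, 8093 and 6023 on miR21 arrays 1, 2 and 3. The arrays of number 1 were the lowest in each group, and in each number the miR21 array was the higher. The log2 difference was 0.33 (SE 0.38, 95% interval -0.56 to 1.22, adjusted p = 0.9999), and 0.55, 0.36 and 0.08 within the numbers. With the replicate block the SE was 0.14 (adjusted p = 0.258), and without both arrays of number 1 the difference was 0.22. Without control replicate 1 the TSG101 difference was -0.0013.

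HGS, the ESCRT-0 subunit that first captures ubiquitinated cargo, read 3432, 4952 and 4549 under control and 4086, 6393 and 4037 under miR21, in the order of the numbers. Its log2 difference of 0.15 (SE 0.31, adjusted p = 0.9999) was made of 0.25 and 0.37 in numbers 1 and 2 and -0.17 in number 3. A second, dimmer probe set of HGS read 121, 63.6 and 108 against 153, 24.3 and 94.5 and differed by -0.42. With the mean of both, HGS differed by -0.13, so its sign depends on the probe set.

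VPS4B, the ATPase that recycles ESCRT-III, read 3041, 1464 and 1162 on control arrays 1, 2 and 3 and 2625, 1147 and 1054 on miR21 arrays 1, 2 and 3. Here the arrays of number 1 were the highest of each group, 2.62-fold above number 3 among the controls. The miR21 array was lower in each number, by -0.21, -0.35 and -0.14, and the mean of -0.24 had an SE of 0.50 without the block and 0.14 with it (adjusted p = 0.9999 and 0.383). Without control replicate 1 the VPS4B difference was 0.17.

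SDCBP, which encodes the adaptor syntenin, read 11010, 7877 and 5801 on control arrays 1, 2 and 3 and 10080, 7185 and 6056 on miR21 arrays 1, 2 and 3. Its log2 difference of -0.07 (SE 0.34, 95% interval -0.86 to 0.73, adjusted p = 0.9999) was the smallest of the 9 in size, and it was -0.13, -0.13 and 0.06 within the numbers. With each array centred on its median the SDCBP difference was 0.03, a scaling that moved the median of all genes tested from -0.01 to 0.09 and the share of them with a higher mean from 48.8% to 60%.

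**Figure D3:**
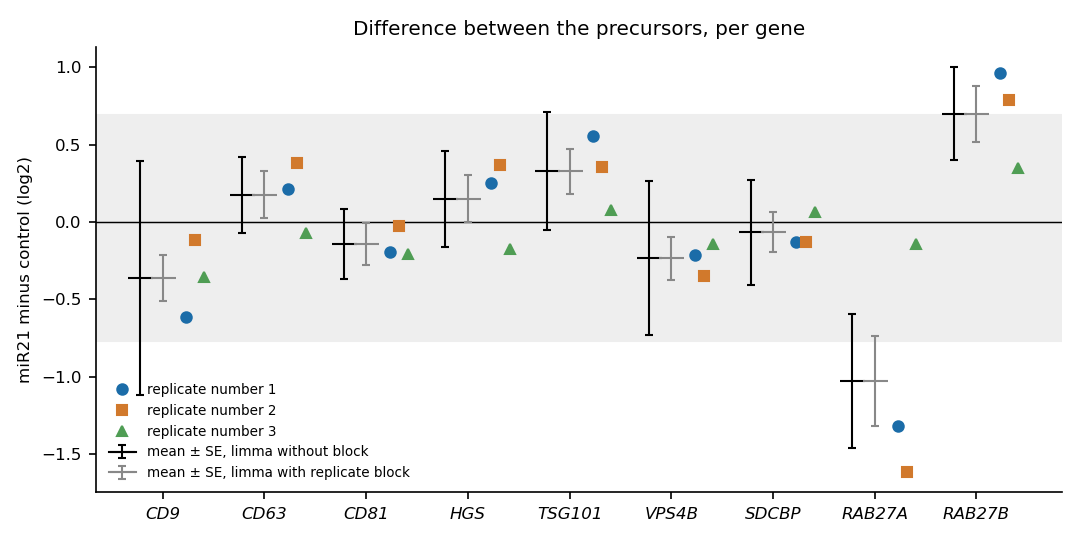
Log2 difference, miR21 minus control, of the 9 genes: the mean with the SE of limma without (black) and with (grey) the replicate block, and the difference within each replicate number (coloured points). The grey band holds the middle of all genes tested, from the 5th to the 95th percentile (-0.77 to 0.69); RAB27A and RAB27B lie outside it and the other 7 inside.

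The spread of these genes over the 6 arrays was divided into shares of the sum of squares, as a description. Replicate number held 97.4% of it for SDCBP, 95.7% for CD9 and for VPS4B, 81.7% for TSG101, 75.8% for HGS and 49.3% for CD63. For 5 of the 9 genes its share was over 50%, as it was for 76.2% of all genes tested. The precursor held the larger share in RAB27B (73.3%), CD81 (63.7%) and RAB27A (54.8%), and the median over all genes tested was 7.87% for the precursor and 77.9% for replicate number. The number 1 arrays had the lowest signals of both groups for CD9, TSG101 and RAB27A and the highest for VPS4B and SDCBP. Their part in these differences was not tested.

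**Figure D4:**
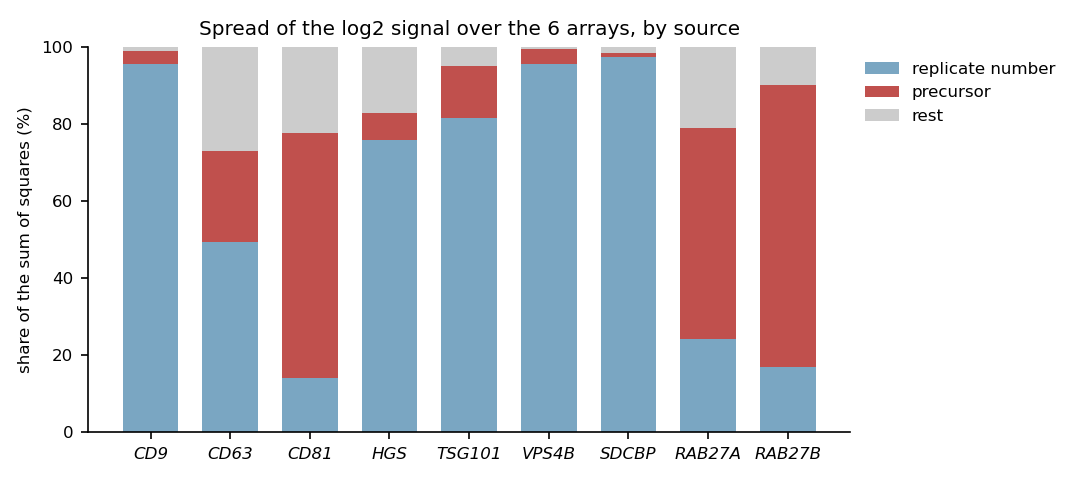
Share (%) of the sum of squares of the log2 signal over the 6 arrays held by replicate number, by precursor and by the rest, for each of the 9 genes. Replicate number fills nearly the whole bar of CD9, VPS4B and SDCBP, and the precursor fills most of that of RAB27B, CD81 and RAB27A.

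Replicate number 3 showed the smallest difference in size for 7 of the 9 genes, all but CD9 and CD81. The same count was not made over all genes, so no trait of the 9 is read from it. When number 3 was left out of the block fit, limma called 4 of the 9 genes, RAB27A (-1.47, adjusted p = 1.99e-07) and CD9 (-0.37, 0.0414) lower and RAB27B (0.88, 4.38e-05) and TSG101 (0.46, 0.00595) higher, each named with its log2 difference. The same fit called 32.8% of all genes tested, 15.9% higher and 16.9% lower. It rests on 2 pairs of arrays with 1 residual degree of freedom, against 51.2 degrees of freedom once limma had pooled the spread across genes. Without number 1 or number 2 the block fit called 0 of the 9, and 0.483% and 0% of all genes.

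The rest of the pathway was followed in 7 lists by role, and 0 genes of any list passed limma, with or without the replicate block, by which 0.0328% of all genes were called. Of the 109 genes tested in them, 6 had groups without overlap (6.65% of all genes did): TSPAN6 was higher (3.38% of all), and SDC4, CD151, TSPAN12, RAB3A and ATP6V0A1 were lower (3.27% of all). The 14 early ESCRT genes had a median log2 difference of 0.14, with 5 higher and 1 lower in all 3 numbers, where 20.3% and 20.9% of all genes were. UBAP1, an ESCRT-I subunit gene, read 2321, 3620 and 2800 under control and 4745, 5185 and 2743 under miR21 (log2 difference 0.51, SE 0.35), higher in numbers 1 and 2. Without miR21 replicate 2 the UBAP1 difference was 0.33 and without miR21 replicate 3 it was 0.79. Another UBAP1 probe set differed by 0.37. VPS37B, of the same complex as TSG101, differed by 0.56 (SE 0.39), by 0.32 without control replicate 1 and by 0.23 without miR21 replicate 2. The 11 measured genes of ESCRT-III and the VPS4 cofactors had a median of 0.15, with CHMP4C at 0.38 and CHMP1B at 0.26. Another CHMP1B probe set differed by 0.25. Leaving out 1 array at a time took CHMP4C from 0.0633 (without control replicate 3) to 0.75 (without miR21 replicate 3), and CHMP1B from 0.0085 (without miR21 replicate 2) to 0.41 (without miR21 replicate 3). The medians of these 2 lists turned below 0 without control replicate 1 (-0.12 and -0.02) or without miR21 replicate 2 (-0.03 for each).

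The syndecan-syntenin and ceramide route had a median of -0.17 over 12 tested genes, of which 3 were lower and 2 higher in all 3 numbers, and 0.06 without miR21 replicate 2. Its SDC4 encodes syndecan-4, a heparan sulfate proteoglycan whose tail binds syntenin. SDC4 read 10120, 9697 and 7406 on control arrays 1, 2 and 3 and 4359, 4978 and 4969 on miR21 arrays 1, 2 and 3. Every miR21 array lay below every control array, and all 3 numbers were lower, by -1.22, -0.96 and -0.58. Its log2 difference of -0.92 had an SE of 0.26 in limma (adjusted p = 0.9999) and of 0.16 with the replicate block (adjusted p = 0.0858), the smallest block p among the genes of the 7 lists and the 9. EXTL3, a heparan sulfate chain enzyme gene, differed by -0.52 (SE 0.34), or by -0.31 without control replicate 1, and another EXTL3 probe set by -0.02.

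Of the other tetraspanins and their partners 23 were tested, with a median of -0.12, 6 lower and 4 higher in all 3 numbers. TSPAN2 read 1313, 795 and 829 on control arrays 1, 2 and 3 and 241, 93.8 and 1062 on miR21 arrays 1, 2 and 3. Like RAB27A it was low on miR21 arrays 1 and 2 and among the controls in number 3 (log2 difference -1.72, SE 0.81, adjusted p = 0.9999). The TSPAN2 difference was -0.91 without miR21 replicate 2 and -2.67 without miR21 replicate 3. TSPAN12, a tetraspanin of Frizzled signalling, read 351, 341 and 303 against 169, 173 and 242, without overlap, and differed by -0.79 (SE 0.34). The 2 other TSPAN12 probe sets above the filter differed by -1.41 (SE 1.18) and -0.97 (SE 0.67), and in both the groups overlapped. The second of them differed by -2.54, -0.49 and 0.11 within numbers 1, 2 and 3. A second TSPAN2 probe set differed by -1.82, without overlap of the groups. The remaining TSPAN2 probe set, below the filter, differed by 0.02.

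Among 20 tested Rab GTPases of secretion and RAB27 effectors the median was -0.06, or -0.20 without miR21 replicate 2 and 0.04 after centring each array. None of the 5 synaptotagmin-like effectors tested passed, with SYTL1 at 1.05, SYTL5 at 0.27, SYTL4 at -0.34, SYTL2 at -0.51 and SYTL3 at -1.07. SYTL1 and SYTL3 are described for their smallest p in the list. SYTL1 read 606, 592 and 911 under control and 1781, 2304 and 713 under miR21, in the order of the numbers. Its differences were 1.55 and 1.96 in numbers 1 and 2 and -0.35 in number 3 (mean 1.05, SE 0.47, adjusted p = 0.9999). SYTL3 read 306, 541 and 834 against 178, 179 and 471 and was lower in all 3 numbers, by -1.07 in the mean (SE 0.54, block SE 0.24, block adjusted p = 0.123). The other 3 SYTL3 probe sets, all below the filter, differed by -2.41, 0.87 and 0.85. Both gene products bind RAB27 in its active form.

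The 14 docking and fusion genes had a median of 0.11, or -0.00275 with the mean of each gene's probe sets and 0.25 without control replicate 2. ATP6V0A1, a proton pump subunit gene, differed by -0.55 (SE 0.29) without overlap of the groups. A dimmer ATP6V0A1 probe set above the filter differed by -0.43 (SE 0.54), and its groups overlapped. Within numbers 1, 2 and 3 that set differed by -1.63, 0.0088 and 0.33. The SNARE gene YKT6 differed by 1.19 (SE 0.82). The YKT6 value rests on control replicate 1, which read 152 against 1060 and 1410 on the other controls: without it the difference was 0.19, without control replicate 3 it was 1.79, and another YKT6 probe set differed by 0.14. The 15 genes of exosome cargo and miRNA sorting had a median of -0.13, with 5 lower and 1 higher in all 3 numbers. Without control replicate 3 that median was -0.04, and centring each array brought it to -0.03. TFRC, the transferrin receptor found in reticulocyte exosomes, differed by -0.63 (SE 0.46), by -0.18 without miR21 replicate 1 and by -0.96 without miR21 replicate 3. Other TFRC probe sets above the filter differed by -0.61 and -0.70, and those below it by -0.27 and -1.05. The raft protein gene FLOT2 differed by -0.28 (SE 0.28), and by -0.17 without control replicate 1 or -0.16 without miR21 replicate 2. Another FLOT2 probe set differed by -0.39.

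**Figure D5:**
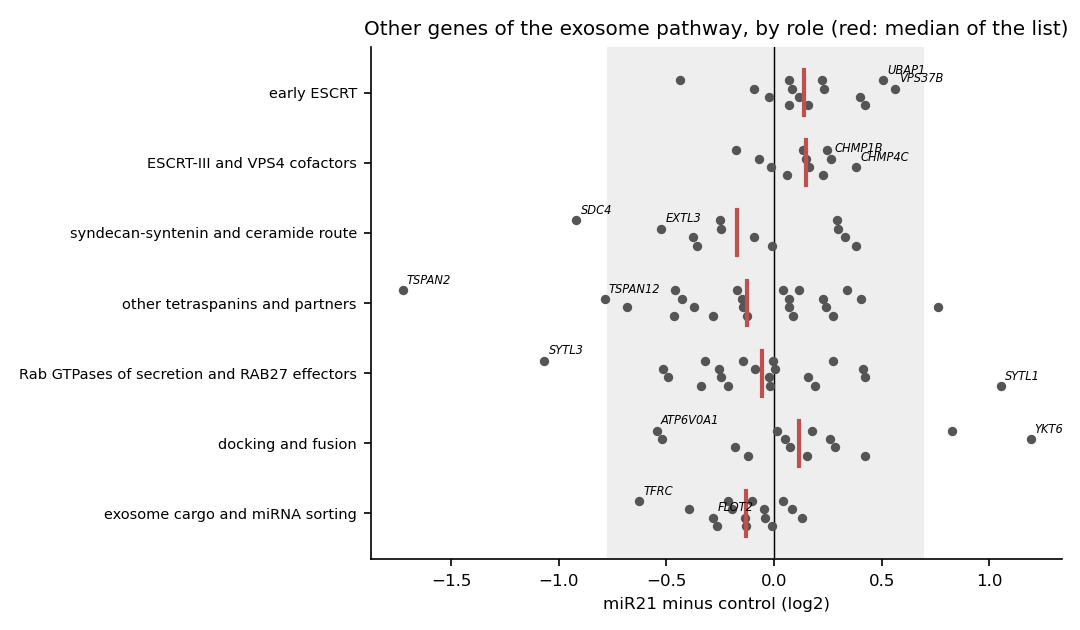
Log2 difference, miR21 minus control, of each tested gene of the 7 lists (points), with the median of each list (red bar) and the 5th to 95th percentile of all genes tested (grey band). The medians lie between -0.17 and 0.15, and TSPAN2, SYTL3, SDC4 and TSPAN12 lie below the band and YKT6, SYTL1, SYT7 (0.83) and ADAM10 (0.76) above it.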

How the data were processed

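MAS5 made the values, per the submitters' processing notes, with a version not given in the sources used here. Linear intensity is what the authors deposited, as MAS5 signals of 54675 probe sets on 6 arrays, with a 2% trimmed mean of 500.1 on each. Gene symbols are those of the platform annotation, and 41037 of 41091 single-gene probe sets matched RefSeq (GRCh38.p14). For each gene the brightest probe set by mean log2 signal was kept, without a pseudocount. Genes at or above the median of all probe sets (signal 65.5) were tested, 12206 of 19775, with limma 3.58.1 in R 4.3.3 (variance trend, Benjamini-Hochberg at 0.05 over all of them) and, for single values, exact two-sided permutation tests. Probe sets were also fitted one by one. The steps were tested on simulated data. Precision is limited by having 3 arrays in each group.

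Replicate numbers come from the titles. Deviations from the group means correlated within number 1 (r = 0.899), 2 (0.638) and 3 (0.635), all above the 0.1 required. The numbers were therefore used as pairs for the differences within numbers and for the replicate block. The main limma fit had no block, so its SEs, intervals and adjusted p-values leave the pairs out. Crossing 2 with 3 (0.283 and 0.411) passes as well, and the titles alone decide between them.

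The genes, lists and tests were chosen with earlier results of these data known. From each of the 7 lists the genes past an adjusted p of 0.05 were to be named, or else the 2 of smallest p; 5 of the 122 listed genes had no probe set naming them alone.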

Additional observations from a re-analysis of the deposited data

How the results depend on the processing

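Of the 9 genes 0 were called after quantile or median scaling of the arrays, with 16 added to each signal, with a stricter filter or none, without the variance trend, with array weights, with probe sets averaged or fitted singly, with the replicate block, or when any single array was omitted. Over all genes, 0 were called under each of these apart from the replicate block, which called 4 genes, none among the 9. Under the block with 1 number omitted, all genes gave 0 to 4004 calls (59 without number 1) and the 9 gave 0 to 4 (4 without number 3), with 1 residual degree of freedom in each such fit. The full block changed no call of the 9. For the genes given above without it, its SE was 0.15 for CD63, 0.13 for CD81, 0.15 for HGS and 0.13 for SDCBP. The block adjusted p-values from limma were 0.553, 0.590, 0.614 and 0.812 in that order.

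The median of the 9, -0.07, became 0.0335 with arrays centred on their median and -0.30 over all 18 probe sets. RAB27A holds more of the 18 than any other gene, all lower in the mean (-1.03 to -0.51), and 14 of the 18 lie above the filter. The median of the 9 ranged from -0.0730 to 0.197 with 1 array omitted. Under the block with a number omitted it ranged from -0.11 to -0.03, so its sign is not settled. Signs turned for HGS with probe sets averaged (-0.13) and for SDCBP with centring (0.0335), which is then the median gene. With 1 array omitted the range crossed 0 for CD9 (-0.95 to 0.35), HGS (-0.0689 to 0.26), TSG101 (-0.0013 to 0.55), VPS4B (-0.65 to 0.17) and SDCBP (-0.29 to 0.17). RAB27A, RAB27B, CD63 and CD81 kept their sign in every alternative run on the gene, although the dim RAB27B probe sets did not share it. The filter signal of 65.5 is the median of all probe sets, and no detection limit was measured. How far the dim probe sets can be read was not tested.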
